A study of Sparus aurata with 9 samples.

Results

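The 130 sequences described here were lower in the liver of gilthead sea bream (Sparus aurata) at both sampling times of a cortisol implant than in control fish. They were chosen by their measured values: a sequence was taken when its mean on the D7 arrays and its mean on the D14 arrays were both at least 1 log2 unit below the Control mean, and when all 6 cortisol arrays lay below all 3 Control arrays. A measured sequence had at least 1 probe marked well above background on 3 or more of the 9 arrays, and 9955 of the 15156 sequences on the array did. The members made up 1.31% of the measured sequences. The falls against Control therefore describe the choice and are given with no test. The choice set no condition on the difference between D14 and D7, but it required low values at both times and so limits that difference too.

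The study kept plasma cortisol high with slow-release implants and asked which liver transcripts differed after 7 days from controls, and after 14 days from 7 days. D7 was liver of adult fish carrying a coconut oil implant with cortisol, given as hydrocortisone hemisuccinate at 200 µg per g body weight, for 7 days, D14 was the same implant for 14 days, and Control was adult fish labelled as having no treatment. Each group had 3 one-colour arrays, and each array held RNA pooled from 2 fish. The protocol describes both an oil implant without cortisol and fish without any implant sampled at day 0, and the labels do not say which of these the Control arrays hold or on what day they were sampled. All fish were of a stock of 108 g mean weight held at 15 °C, and the same fast beforehand is recorded for every sample. The fish also went without food during the experiment, so cortisol and fasting ran together in every implanted fish. A Control group sampled on day 0 would have fasted for a shorter time. The design text counts 36 fish, while 9 pools of 2 make 18.

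Cortisol is the main glucocorticoid of bony fish. It enters cells, binds the glucocorticoid receptor and changes the transcription of target genes in both directions, and it also acts through the mineralocorticoid receptor. In fish liver it is known for its part in glucose production, amino acid and lipid metabolism and the restraint of growth and immune functions. The files pair no probe with a gene: of the 15156 names on the array, 0 were found among the 32006 genes annotated in assembly fSpaAur1.1, and the files used here give no probe sequences. The members are therefore known only by clone and contig names, no function is given to any of them, and the liver could not be checked against its marker genes. Members are numbered from 1 to 130 by the mean of their D7 and D14 falls, the largest fall first.

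Levels are log2 signals of the Cy3 dye minus the 75th percentile of each array, so that 0 marks that percentile of the non-control spots and 1 unit is a 2-fold change of signal. They are compared between arrays for 1 sequence and not between sequences, because probes differ in brightness. Between 34.7% and 65.2% of spots were well above background on an array, and no spot was saturated. The arrays lay on 3 slides: slide 1 held pool 3 of D7, pool 3 of D14 and pools 1 and 3 of Control, slide 2 held pool 1 of D7 and of D14, and slide 3 held pool 2 of each group. A lower level in a pool can come from fewer cells that make the transcript or from less of it per cell, and these cannot be told apart in liver RNA.

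The median difference of the members from Control was -1.56 log2 units at D7 and -1.605 at D14. Over all measured sequences the medians were 0.05 at D7 and 0.02 at D14. The D7 differences of the members lay between -6.29 and -1.002 and the D14 differences between -5.44 and -1.003. The mean of both falls was at least 2 log2 units, which is 4-fold, in 35 members and at least 3 log2 units in 11. Both falls were at least 2 log2 units in 21 members. Most members lay closer to the threshold, and in 53 the mean fall was under 1.5 log2 units.

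**Figure D1:**
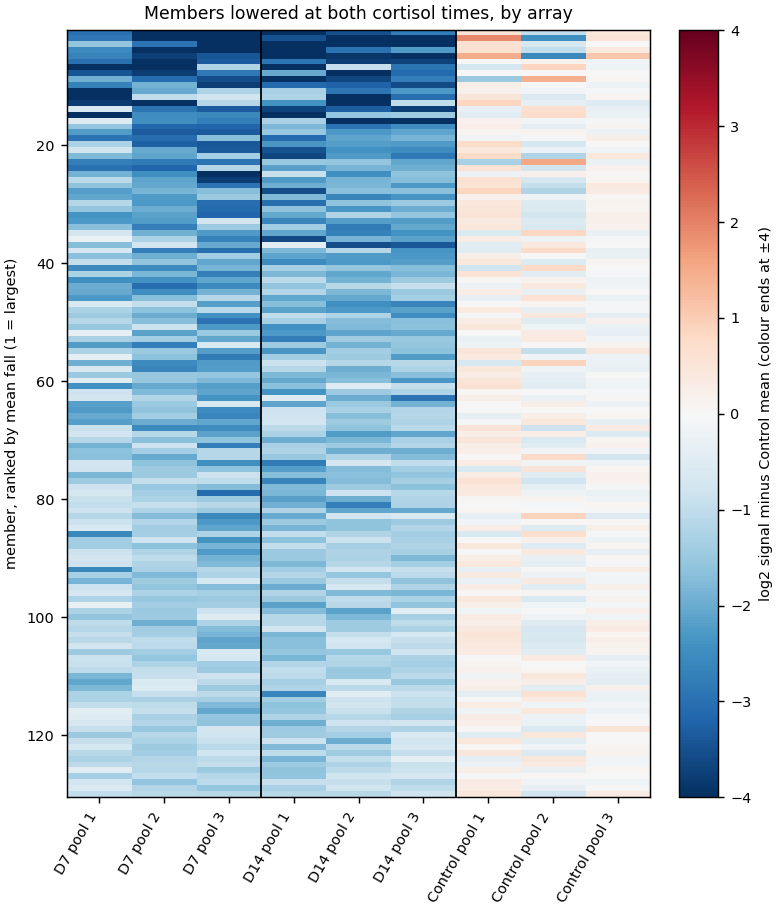
Difference of each of the 130 members (rows, ranked by mean fall) from its own Control mean on each of the 9 arrays (columns), in log2 units, with blue for lower and red for higher and the colour ending at 4 units. The 6 cortisol columns are blue throughout, deepest in the top rows, and the Control columns are pale except in a few rows such as members 2 and 5.

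Both conditions of the choice had sequences on either side of them. Of the 231 sequences whose means passed both falls, 101 had at least 1 cortisol array at or above a Control array and were left out. All 6 cortisol arrays lay below all 3 Control arrays in 453 sequences, 4.55% of those measured, and 323 of these had a smaller fall at one time or both. The 5 members nearest to the fall threshold had a smaller fall of -1.002, -1.003, -1.011, -1.016 and -1.022. The 5 sequences just outside it had -0.997, -0.991, -0.989, -0.985 and -0.978. The gap between the highest cortisol array and the lowest Control array had a median of 0.44 log2 units over the members, with the smallest, 0.01, in member 130 and the largest, 2.75, in member 6.

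Leaving out 1 array at a time showed which members kept both falls past the threshold. A member near the threshold can fail this after a small shift. In 75 of the 130 both falls stayed at 1 log2 unit or more whichever array was left out. Without pool 1 of D14 or without pool 1 of Control 110 members kept both falls, and without pool 3 of D7 112 did. When the whole choice was repeated without pool 2 of Control, 315 sequences met it, against 130 with all arrays. Pool 2 was the lowest Control array in 66 of the 130 members, and in 40.1% of all measured sequences.

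On single arrays, the median difference of the members from their Control mean was -1.28, -1.55 and -1.78 in D7 pools 1, 2 and 3. It was -1.68, -1.60 and -1.47 in D14 pools 1, 2 and 3, and 0.24, -0.15 and -0.03 in Control pools 1, 2 and 3. The cortisol pools thus differed among themselves by up to 0.5 log2 units in this median. D7 pool 1 was the highest of the 6 cortisol arrays in 52 members, and D7 pool 3 was the lowest in 38. The same shares over all measured sequences were not counted, so these counts may not be particular to the members. The falls were also present within the slides that held both kinds of fish. Within slide 1 the median difference was -1.89 for D7 and -1.51 for D14, and within slide 3 it was -1.42 for D7 and -1.56 for D14. Over all measured sequences the same 4 medians lay between -0.01 and 0.08. A fall of at least 1 log2 unit was seen within slide 1 in 112 members for D7 and 116 for D14, and within slide 3 in 101 for D7 and 96 for D14, where the direction was fixed by the choice.

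The number of members detected differed between arrays and was highest on the Control arrays, where the choice required the higher values. Detection of a member on an array required 1 or more measured probes well above background there. On D7 pools 1, 2 and 3, 101, 114 and 95 of the 130 members were detected. On D14 pools 1, 2 and 3, 67, 123 and 123 were, and on Control pools 1, 2 and 3, 129, 128 and 130 were. D14 pool 1 stands apart here, as it also had the lowest share of all spots above background, 34.7%. Its part in the falls at D14 was not tested beyond leaving it out.

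**Figure D2:**
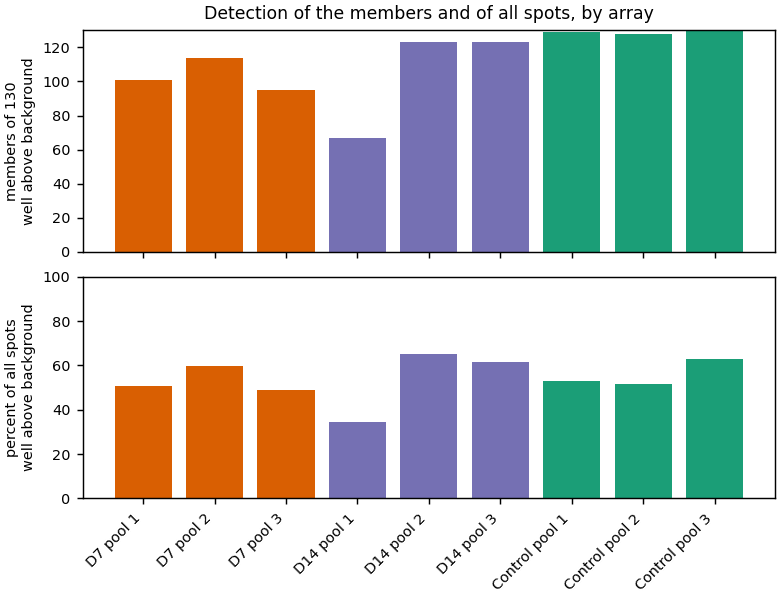
Upper panel, the number of the 130 members well above background on each array, for D7, D14 and Control from left to right. Lower panel, the percentage of all 43803 non-control spots well above background on the same arrays. D14 pool 1 is lowest in both panels, with 67 members and 34.7% of spots.

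Of the members, 65 were detected on all 9 arrays, which is 50% of them, against 54.1% of all measured sequences. In 26 of these 65, 1 or more measured probes were detected on fewer arrays, and their values entered the mean of the member. Every measured probe was detected on all 9 arrays in 39 members, 30% of them, against 42.9% of all measured sequences. In those 39 the median difference from Control was -1.43 at D7 and -1.44 at D14. Over the 65, the median difference from Control was -1.43 at D7 and -1.57 at D14, with the largest falls at -2.97 and -3.30. At the other end, 16 members were detected on 0 to 2 cortisol arrays. They passed the detection filter only with the help of the group in which they were high, and member 2 is among them. Of these, members 8, 16 and 67 were detected on all 3 Control arrays and on no cortisol array. No D7 array detected 13 members and no D14 array detected 5, so there the cortisol level rests on undetected signals. In these cases a dim value was to be replaced by the array's lowest signal well above background where that was higher. That signal lay close to the lowest signal of any kind on the array, so the step could hardly change a value. It changed 0 of the ratios at D7 and 0 at D14, so no lower bound was obtained. The ratios are those measured, from undetected cortisol signals. The members undetected at D7 measured 2.70-fold to 10.4-fold lower at D7 than in Control. Those undetected at D14 measured 2.19-fold to 43.5-fold lower at D14. The 10.4-fold ratio is that of member 8.

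Member 1, the clone sequence cDN01P0003M13.F.ab1, had the largest mean fall. Its levels were 1.52, -2.75 and -4.15 in the D7 pools, -3.16, 0.98 and 1.75 in the D14 pools, and 5.06, 3.51 and 4.93 in the Control pools. D7 pool 1 and D14 pools 2 and 3 were the higher of the implanted pools, and all 6 lay below the Control pools. As raw signals its probe CUST_21344_PI419285025 read 661, 63.0 and 5.42 at D7, 30.9, 1451 and 947 at D14, and 9650, 3060 and 11858 in Control. Its mean was 78.4-fold lower at D7, a difference of -6.29, and 25.02-fold lower at D14, a difference of -4.64, with SDs of 2.95 at D7, 2.64 at D14 and 0.86 in Control on the log2 scale (n = 3 each). It was detected on 2 of the 3 arrays at each cortisol time, so the sizes rest partly on undetected signals. Single arrays moved them widely: the D7 difference was -7.95 without D7 pool 1 and -5.12 without D7 pool 3, and the D14 difference was -3.14 without D14 pool 1 and -5.59 without D14 pool 3.

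All 3 probes of member 1 gave this pattern. Their D7 differences were -6.14, -6.38 and -6.35, and their D14 differences -4.59, -4.63 and -4.72. Member 4, another clone sequence, put the 6 cortisol arrays in the same order, D14 pool 3, D7 pool 1, D14 pool 2, D7 pool 2, D14 pool 1 and D7 pool 3 from high to low. Its levels were -0.04, -1.58 and -3.44 at D7, -3.04, -0.50 and 0.25 at D14, and 3.099, 1.51 and 2.90 in Control. That order was shared by 3 members and by 20 of all measured sequences. Several other orders were also shared by 3 members each, and 109 orders occurred among the members. The value of member 4 came from 1 of its 3 probes, and the other 2 were detected on too few arrays to count.

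Member 2, the clone sequence cDN10P0002A07.F.ab1, differed most among the Control pools. Its levels were -2.43, -5.42 and -4.42 at D7, -3.04, -6.07 and -5.87 at D14, and 2.37, -1.99 and 0.97 in Control. Control pool 2 lay only 0.44 log2 units above the highest cortisol array, and the range over the Control pools was 4.35, the widest of any member. It was detected on 1 of 3 D7 arrays and on none of the D14 arrays, so it passed the detection filter only with the Control arrays. At D14 its measured mean, from undetected signals, was 43.5-fold lower than in Control, a difference of -5.44. That size depended on the processing, since the D14 difference was -2.16 with normexp background correction, -4.48 without Control pool 1 and -6.66 without Control pool 2. Its raw signals at D14 were 30.4, 10.05 and 4.88, against 1330, 65.1 and 771 in Control. It has 1 probe, so no other probe bears on it.

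Member 11, the clone sequence cDN01P0001L12.F.ab1, is a member in which 1 array set the size of the fall at D7. Its levels were -4.66, 1.82 and 2.60 at D7, 2.56, 0.96 and 1.55 at D14, and 4.01, 3.74 and 3.78 in Control. D7 pool 1 was at background, with a raw signal of 9.07, while the other 5 implanted pools gave a clear signal. All 6 lay below Control, whose pools differed by 0.27. Its D7 mean was 15.2-fold and its D14 mean 4.45-fold lower than in Control. The D7 difference was -3.92 with all arrays and -1.63 without D7 pool 1.

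**Figure D3:**
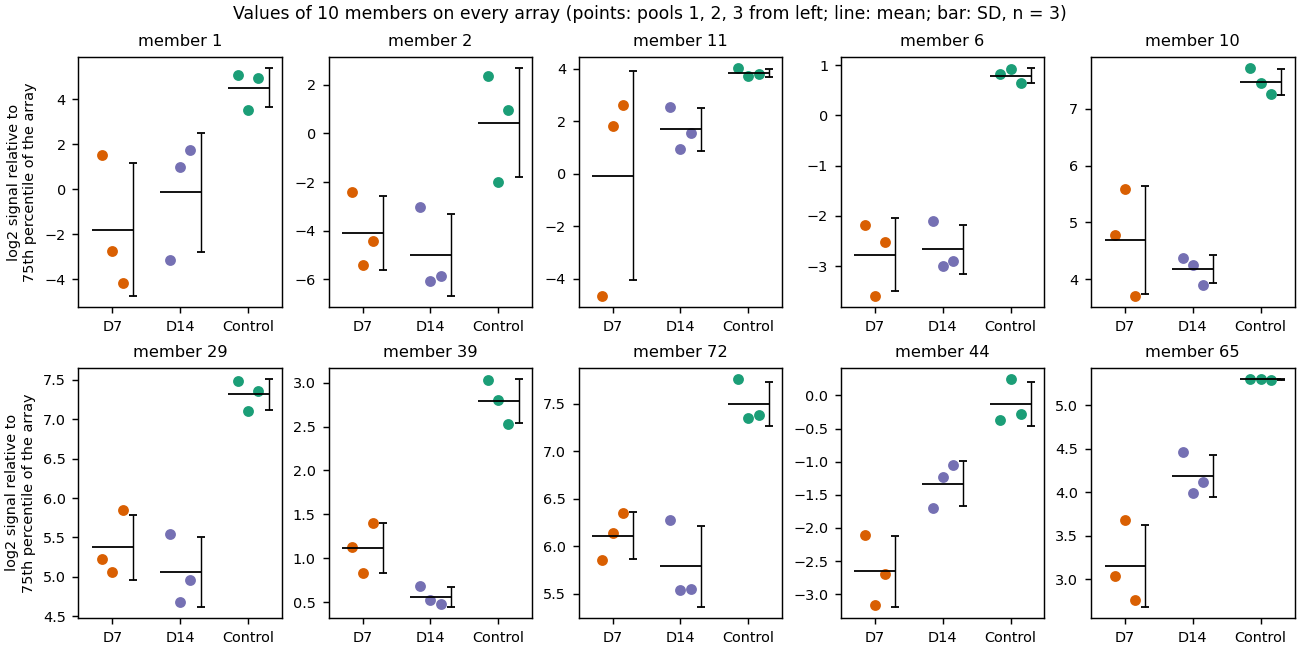
Levels of members 1, 2, 11, 6, 10, 29, 39, 72, 44 and 65 on every array, in log2 units above the array's 75th percentile, for D7, D14 and Control from left to right (points are pools 1, 2 and 3, lines are means, bars are SDs, n = 3). Members 1, 2 and 11 spread over several log2 units within the cortisol groups, while in members 29, 39 and 72 the SDs within a group were 0.44 or less. Members 44 and 65 were higher at D14 than at D7.

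The spread over the cortisol arrays tended to be wider in the members than in all measured sequences. The range over the 6 cortisol arrays had a median of 1.49 log2 units in the members, against 1.20 in all measured sequences. It reached 4 or more in 6 of the 130 members, against 1.43% of all measured sequences. These were members 1, 3, 7, 11, 12 and 13, each of which was not detected on 1 or more cortisol arrays. The within-group SD of the members had a median of 0.58 at D7, 0.41 at D14 and 0.40 in Control, against 0.39, 0.34 and 0.35 for all measured sequences.

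Member 6 had the widest gap of any member between the cortisol and the Control pools. Its levels were -2.19, -3.60 and -2.53 at D7, -2.11, -3.001 and -2.90 at D14, and 0.82, 0.92 and 0.64 in Control. The highest cortisol pool was 2.75 log2 units below the lowest Control pool. The means were 11.8-fold lower at D7 and 11.01-fold lower at D14, and the value rests on 1 probe.

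Member 10 was detected on all 9 arrays and had the largest mean fall among those. Its levels were 4.78, 5.59 and 3.70 at D7, 4.37, 4.25 and 3.90 at D14, and 7.71, 7.46 and 7.25 in Control. The D14 pools lay closer together than the D7 pools, with SDs of 0.25 and 0.95 (n = 3 each). Its mean was 6.88-fold lower at D7 and 9.86-fold lower at D14. One of its 3 probes had no usable spot on Control pool 1, where the other 2 probes gave the value.

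Members 29, 39, 59 and 72 showed smaller falls, with SDs within a group of 0.44 or less (n = 3 each). The D14 SDs of members 29 and 72, 0.44 and 0.42, were above the member median of 0.41. Member 29 had levels of 5.22, 5.06 and 5.84 at D7, 5.55, 4.68 and 4.96 at D14, and 7.48, 7.10 and 7.36 in Control. Member 39 had 1.13, 0.84 and 1.40 at D7, 0.69, 0.53 and 0.48 at D14, and 3.03, 2.81 and 2.53 in Control. In both, the highest cortisol pool was more than 1 log2 unit below the lowest Control pool. Member 59 had -0.96, -1.01 and -1.05 at D7, -1.27, -1.31 and -1.16 at D14, and 0.83, 0.18 and 0.54 in Control. Its D14 pools varied by an SD of 0.08 and its D7 pools by 0.04. Member 72 had 5.85, 6.13 and 6.34 at D7, 6.27, 5.54 and 5.55 at D14, and 7.76, 7.35 and 7.38 in Control.

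In the fit across all measured sequences with limma, a sequence was called when its Benjamini-Hochberg adjusted p was under 0.05. Of the 130 members, 16 were called lower at D7, where 0.221% of all sequences were called lower. At D14 12 members were called lower, against 0.211% of all sequences. Called lower at both times were 6 members, numbers 6, 8, 10, 29, 39 and 59, against 0.0603% of all sequences. The choice used these contrasts, so nothing is read from the counts. Members 1 to 5, with the largest mean falls, were called at neither time. Without Control pool 1 or Control pool 3 limma called 0 of all sequences at either time, and so no member. At an unadjusted limma p under 0.05 there were 971 and 933 sequences at D7 and 1219 and 1223 at D14. Without D14 pool 3 no member was called at either time, and over all sequences 1 was called at D7 and 0 at D14. At an unadjusted limma p under 0.05 there were then 1279 and 1327 sequences. Without D14 pool 2, members were 8 of the 10 sequences called lower at D7. At D14 0 sequences were then called, with 1185 at an unadjusted limma p under 0.05. Without Control pool 2, members were 28 of the 69 sequences called lower at D7 and 19 of the 51 at D14. Without D7 pool 1 they were 6 of 6 at D7 and 26 of 40 at D14, without D7 pool 2 3 of 3 and 6 of 9, and without D7 pool 3 13 of 15 and 28 of 46. With the slide as a block, members were 6 of the 6 sequences called lower at D7 and 20 of the 34 at D14. With the scan day as a block they were 9 of 11 and 11 of 15. With the slide block 6 members were called at both times, and they were the only sequences called lower at D7. With the scan day block 3 members were, and how many other sequences were called lower at both was not counted. The choice used these contrasts, so nothing is read from these counts either.

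The value of a member is the mean of its measured probes, so the falls of single probes were largely fixed by the choice and are a description. Of the 130 members, 70 had 2 or more measured probes, 53.8% of them against 44.6% of all measured sequences. These members held 207 measured probes. Of those, 203 lay below Control at both times, 3 had a missing value, and 159 met the whole choice by themselves. Over the 12767 measured probes of all sequences with several, 33.8% lay below Control at both times and 1.53% met the choice. In 34 members every measured probe met it, and in 56 at least 2 did. The range between the probes of a member had a median of 0.30 log2 units for the D7 difference and 0.25 for the D14 difference, and reached 2.44 and 2.11. Over all measured sequences the medians were 0.30 and 0.26. Probes of a sequence share the RNA of the pool, so they bear on the probe and not on the fish. The other 60 members had 1 measured probe, which was their only probe on the array in 51. The mean fall had a median of -1.63 in members with several measured probes and -1.61 in members with 1. A further 26 probes of members stayed below the detection filter, and 19 of them were below Control at both times, with a median of -1.12 at D7 and -0.92 at D14.

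The comparison of D14 with D7 asked whether the lowered sequences changed between the sampling times. Because both times had to lie at least 1 log2 unit below Control, sequences lowered at 1 time alone were left out, and a difference near 0 is in part fixed by the choice. No member was called between the times by limma at an adjusted p under 0.05, where 0% of all sequences did, and the lowest adjusted p of a member was 0.299. A fit on single probes also called no probe of a member. At an unadjusted p under 0.05, 14 members (10.8%) differed, against 11.5% of all measured sequences. The median D14 minus D7 difference was -0.01 log2 units in the members and -0.04 over all measured sequences. D14 was above D7 in 64 members and below it in 66, against 46.9% of all sequences with D14 above. The times differed by less than 0.5 log2 units in 61.5% of the members and in 66.1% of all measured sequences. The median standard error of the difference was 0.395 in the members and 0.334 over all measured sequences. Missing the threshold with 3 pools a group does not show that the times were alike.

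**Figure D4:**
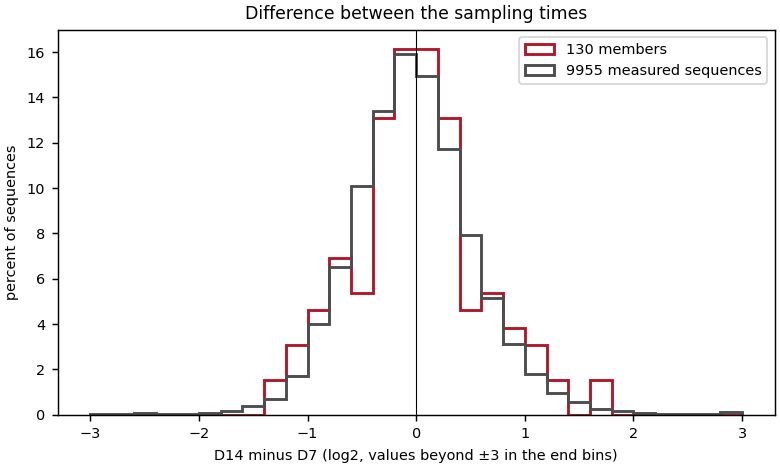
Distribution of the D14 minus D7 difference in log2 units, as a percentage of the 130 members (red) and of the 9955 measured sequences (grey) in bins of 0.2. Both are centred near 0, with medians of -0.01 and -0.04, and the members' differences lie between -1.35 and 1.77.

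The arrays of the 2 times did not overlap in 18 members, 13.8%, against 18.6% of all measured sequences. D14 was above D7 in 11 members, 8.46%, against 9.45% of all sequences, and below it in 7, 5.38%, against 9.17%. Among the 11, members 23, 41, 43, 45, 57, 67 and 88 were detected on no D7 array, and members 32 and 61 on 1. Their D7 levels thus rest wholly or partly on undetected signals. The lowest level well above background was -3.45 on D14 pool 1, against -5.01, -5.93 and -4.99 on D7 pools 1, 2 and 3. Whether this bears on these members was not tested. Leaving out D14 pool 1, D14 pool 3, D7 pool 1 or D7 pool 3 raised the 18 to 37, 28, 29 or 34, with fewer arrays left to overlap. The shares of all measured sequences without the same arrays were 40%, 23.9%, 29.8% and 30.7%. Each slide held 1 array of each time, and the difference had the same sign on all 3 slides in 33 members, 25.4%, against 39.4% of all sequences. Slides differed in the members: the median D14 minus D7 difference was 0.23 within slide 1, -0.39 within slide 2 and 0.04 within slide 3. Over all measured sequences it was -0.07, -0.03 and -0.01. On slide 2 the D14 array had the lowest detection of all arrays. The D7 array there, pool 1, was the highest cortisol array in 52 members, more than any other array was. That is part of the slide 2 difference itself. Whether the low detection of the D14 array bears on it was not tested.

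A difference of 1 log2 unit or more between the times was found in 14 members, 10.8%, against 7.23% of all sequences. D14 was higher in 8 members, 6.15%, against 4.01% of all sequences, and lower in 6, 4.62%, against 3.22%. The largest differences in favour of D14 belonged to members 11 and 1, at 1.77 ± 1.58 and 1.65 ± 1.57 (SE), with limma adjusted p of 0.662 and 0.684. In member 11 it came from slide 2 alone, with 7.22 there and -1.05 and -0.86 on slides 1 and 3, and without D7 pool 1 the difference was -0.52. In member 1 it was 5.89 on slide 1, -4.68 on slide 2 and 3.73 on slide 3.

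Members 44 and 65 were the members with the lowest unadjusted p between the times, and they were chosen after their values were seen. Member 44 had levels of -1.70, -1.24 and -1.05 at D14 and -2.11, -3.17 and -2.69 at D7, with -0.37, 0.25 and -0.28 in Control. Member 65 had 4.46, 3.99 and 4.11 at D14 and 3.04, 3.68 and 2.76 at D7, with 5.297, 5.300 and 5.293 in Control. In both the D14 pools all lay between the D7 pools and the Control pools. The D14 minus D7 difference was 1.33 ± 0.33 in member 44 and 1.03 ± 0.27 in member 65 (SE), with an unadjusted p of 0.0029 and 0.0044 and a limma adjusted p of 0.299 for each, above the threshold. Both had 3 measured probes. In member 65 each was detected on all 9 arrays, and in member 44 they were detected on 9, 8 and 5. The clearest differences in the other direction were in members 48 and 81, with -0.86 and -0.96 and a limma adjusted p of 0.313 and 0.382.

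The sequence names fall into several kinds by how they start, and the choice did not use them. Clones with names starting in cDN gave 63 of the members, numbered contigs 41, contigs with names starting in Seabream 21, contigs named Mackenzie 3 and clones named SCT 2. As shares of the measured sequences of each kind these were 1.27%, 1.68%, 0.942%, 2.97% and 0.837%. Within the cDN clones the prefix cDN01 had the highest share, 12 members of 384 measured sequences, 3.12%. The prefix cDN02 had the lowest, 1 of 404, 0.248%. All other cDN prefixes lay between 0.694% and 1.87%, and the differences between prefixes were not tested. Members 1 and 11 are among the 12 of cDN01. What the prefixes stand for is not given in the sources used here, and sequences of different names may come from the same gene.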

How the data were processed

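Each array file was written by Agilent Feature Extraction 10.7.3.1, per the file headers, and holds the deposited spot intensity of Cy3 after background subtraction and detrending and not scaled across arrays. The authors' value table was deposited as log2 of the background-subtracted intensity, except that the column of D7 pool 3 is a logarithm to base 20, as comparison with the scanner values showed. It served only as an alternative.

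From the processed signals, log2 values minus the 75th percentile of each array's 43803 non-control spots were averaged per probe, without outlier spots, and then per sequence over its probes well above background (at least 50% of spots) on 3 or more of 9 arrays. This gave 18278 probes and 9955 sequences. A probe missing on an array left the value to the sequence's other probes, in 3 members. All 9955 sequences entered 1 linear model in limma 3.58.1 (lmFit, then eBayes; R 4.3.3; 6 residual degrees of freedom, Benjamini-Hochberg over all sequences). Of these sequences, 5 lacked a value on 1 or more arrays and were fitted on the rest. The fit was tested on simulated data, and the outcome is not reported here. The members and rules were chosen with earlier results of these data known. IDs are printed for the 2 largest mean falls and the 2 largest D14 minus D7 differences among members, 3 sequences in all, and other members are given by number. Members 4, 6, 10, 29, 39, 59 and 72 were chosen for description after their values were seen. Planned background correction on mean signals used median signals, because the files hold no mean signal column. Pool numbers were checked as a possible pairing. The deviations of same-numbered D14 and D7 arrays, which also shared a slide, correlated at 0.094, 0.293 and 0.302. Differently numbered D14 and D7 arrays gave -0.286 to 0.085. Against the same-numbered Control pools 1, 2 and 3, D14 gave -0.291, -0.021 and 0.416, and D7 gave 0.102, 0.114 and 0.285. Against differently numbered Control pools, D14 gave -0.494 to 0.398 and D7 gave -0.195 to 0.043. A shared number and a shared slide cannot be told apart for D14 and D7. The main fit used no pairs, and fits with the pool number or the slide as a block are given as alternatives. Plots used matplotlib 3.10.9. Precision is limited by there being 9 arrays.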

Additional observations from a re-analysis of the deposited data

How the results depend on the processing

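Between the times, no member was called under any of the 22 alternatives, and the median D14 minus D7 difference of the members stayed between -0.10 and 0.10. Over all sequences 0 were called between the times, and 1 in the probe fit and without D7 pool 3 or D14 pool 1 (0 to 1 when leaving out each array). With the pool number as a replicate block, limma called 10 sequences at D7 and 38 at D14 in either direction, and left 0 between the times. Members were 5 of the 5 sequences called lower at D7 and 13 of the 19 at D14. Called at both were 4 members, and as every sequence called lower at D7 was a member, no other sequence was called lower at both. The choice used these contrasts, so nothing is read from the counts. The number of members was 114 to 143 under 7 of the 8 other ways of scaling, filtering or reading the arrays, of which 111 to 130 were among the 130. With normexp background correction it was 65, 56 of them shared. It was 21 at a threshold of 2 log2 units, 231 by means alone, and 126 to 315 when leaving out each array, the highest without Control pool 2. Members whose D14 and D7 arrays did not overlap numbered 4 with normexp (3.08%, against 8.55% of all sequences), 10 with detection on 6 of 9 arrays (8.77% of those present, against 18.5%), and 17 to 37 when leaving out each array (13.4% to 28.5%, against 18.1% to 40%). Sequences called at D7 and at D14 in either direction numbered 17 and 27 with quantile normalization, 8 and 6 with normexp, 0 and 0 without a detection filter (1151 and 1500 at an unadjusted limma p under 0.05), and 16 and 22 in the authors' table. Slide and scan day as blocks gave 11 and 21 at D7, and a trended variance gave 112 at D14. Leaving out each array gave 0 to 137 at D7 and 0 to 91 at D14. The D14 minus D7 difference turned to 0.0204 for cDN10P0002A07.F.ab1 with normexp, and for cDN01P0001L12.F.ab1 to -0.54 in the authors' table, where D7 pool 1 had no value, and to -0.52 without D7 pool 1 (-0.52 to 3.109 when leaving out each array). The causes of these moves were not tested. Of the members, 65 were not detected on every array, so their falls are measured against background there.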
